A study of Mus musculus with 8 samples.

Results

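Epithelial antimicrobial and acute phase proteins are represented here by 5 genes for secreted proteins, Defb4, Lcn2, Saa1, Chil1 and 2610528A11Rik, followed across 8 arrays of mouse ear skin. They were chosen by symbol from the authors' deposited table of changed probe sets, so they were chosen for being different between the groups. That table lists 3411 of the 33793 probe sets, those with adjusted p under 0.05 and a log2 difference of at least 0.5 either way; 7.63% of all probe sets are in it as higher in KO. Each of the 5 genes had 1 probe set in it, which makes 5 probe sets of 33793.

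The study inactivated Cdsn, the gene of corneodesmosin, an adhesion protein of the junctions that hold the outermost skin layers together, in the epidermis of adult mice. KO mice (4 arrays) were KRT14-CreERT2(tg/0)/Cdsn fl/fl and WT mice (4 arrays) were KRT14-CreERT2(tg/0)/Cdsn wt/wt, all of the background given as C57B/6J, so both groups carried the inducible recombinase. Both had 4-hydroxytamoxifen put on each ear at 100 µg a day for up to 15 days, at an age of 7 to 12 weeks when treated. The KRT14 promoter drives the recombinase in basal keratinocytes, and whole ear skin also holds cells in which it is not active. Each array is labelled as 1 mouse. Values are RMA log2 expression values, and the number of arrays limits the precision.

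Skin keeps microbes out with a cornified barrier and with secreted proteins that keratinocytes make little of at rest and more of when cytokines such as IL-17, IL-22, IL-1 or IL-36 reach them. Defb4 encodes a beta-defensin, a small cationic peptide that damages microbial membranes and attracts cells through the chemokine receptor CCR6. Lcn2 encodes lipocalin 2, which withholds iron by binding bacterial siderophores and is made by stressed epithelia and by neutrophils. Saa1 encodes serum amyloid A 1, a lipoprotein-bound acute phase protein made mainly by the liver and also by inflamed epithelia. Chil1 encodes a chitinase-like protein that binds chitin without cutting it and is a product of macrophages, neutrophils, chondrocytes and epithelia. 2610528A11Rik has the synonym Gpr15l in RefSeq, and encodes a small secreted ligand of the T cell homing receptor GPR15, made by epithelia of skin and colon.

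The DNA just before the start of these genes is shown for Saa1, where a C/EBP and an NF-kB match adjoin, and for 2610528A11Rik, the one window of those searched that held TATAAA. RefSeq's GRCm38.p6 promoter table matched 4 of the 5 members, Lcn2, Saa1, Chil1 and 2610528A11Rik, and the 250 bases before each start were searched. The motifs were TGANTCA for AP-1, TTNNGNAA for C/EBP, TTCNNNGAA for STAT and, for NF-kB, GGG and CC with any 5 bases between them, each on both strands, and TATAAA on the gene's strand, which was added after the sequences were seen. Capitals mark the matches, and the sequences run 5′ to 3′ on the gene's strand.
Saa1, chr7:46742981-46743230, minus strand: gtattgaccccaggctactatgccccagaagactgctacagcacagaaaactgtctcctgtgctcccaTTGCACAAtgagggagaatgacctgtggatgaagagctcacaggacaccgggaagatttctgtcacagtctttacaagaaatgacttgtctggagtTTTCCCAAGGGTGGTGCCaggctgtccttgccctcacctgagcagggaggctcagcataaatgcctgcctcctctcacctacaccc
2610528A11Rik, chr14:37110102-37110351, minus strand: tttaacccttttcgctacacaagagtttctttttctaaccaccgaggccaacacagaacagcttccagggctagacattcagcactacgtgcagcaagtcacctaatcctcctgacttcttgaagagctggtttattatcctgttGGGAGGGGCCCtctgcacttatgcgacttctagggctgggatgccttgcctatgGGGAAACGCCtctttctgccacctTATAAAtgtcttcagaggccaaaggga
The letters of the NF-kB motif were in all 4 windows and in 45.8% of the 32851 windows of this length. Those of C/EBP were in 3 of the 4 (Lcn2, Saa1 and Chil1) and in 36.8% of all windows. In Saa1 a C/EBP match, TTTCCCAA, begins 86 bases before the start and directly adjoins an NF-kB match, GGGTGGTGCC, which begins 78 bases before it. In 2610528A11Rik, whose NF-kB matches include a pair that overlap each other, TATAAA begins 27 bases before the start, a sequence found in 7.59% of windows. Lcn2 held TTGCTCAA and GGACTACCCC, and Chil1 held TTACATAA, GGGGGAAGCC and GGGACTCCCC, of which the last matches on both strands. The AP-1 letters, in 6.75% of windows, and the STAT letters, in 7.02%, were in none of the 4. These are matches of letters, with no binding measured.

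Cdsn checked the labels. It read 10.31, 8.89, 9.82 and 9.49 in KO replicates 1 to 4 and 12.05, 11.76, 12.13 and 12.06 in WT replicates 1 to 4. The groups did not overlap, at a log2 difference of -2.37 (limma SE 0.26, adjusted p = 0.00203; exact two-sided permutation p = 0.0286, the smallest that 4 against 4 arrays allow). Over all probe sets 9.91% were called higher and 3.19% lower in KO by limma at adjusted p under 0.05, and 15.9% had every KO array above every WT array. The calls leaned upward with the median log2 difference of 0.094 over all probe sets: 75.7% of calls were higher as deposited, and 49.1% after quantile normalization. WT replicate 1 was the highest WT array for 4 of the 5 members, so each member's difference is also given without it.

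The beta-defensin gene Defb4 had the largest difference of the 5 and was the one whose groups overlapped. It read 11.25, 11.75, 8.78 and 8.89 in KO replicates 1 to 4, and 9.36, 5.76, 5.25 and 6.02 in WT replicates 1 to 4. KO replicates 1 and 2 were high, KO replicates 3 and 4 were lower, and WT replicate 1 was above both of these, by up to 0.59 log2 units. The KO mean of 10.17 ± 1.55 exceeded the WT mean of 6.60 ± 1.87 (SD, n = 4 each) by 3.57 log2 units, or 11.8-fold. Without WT replicate 1 it was 4.49, or 22.4-fold.

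2610528A11Rik, the GPR15 ligand gene, was high in every KO mouse and spread more from mouse to mouse in WT than in KO. It read 13.12, 12.39, 12.06 and 12.06 in KO replicates 1 to 4, and 11.90, 7.24, 7.50 and 9.48 in WT replicates 1 to 4. WT replicate 1 missed the KO range by 0.16 log2 units, while WT replicates 2 and 3 were the lowest. The KO mean of 12.41 ± 0.50 exceeded the WT mean of 9.03 ± 2.16 (SD, n = 4 each) by 3.38 log2 units, or 10.4-fold. Leaving out WT replicate 1 gave 4.33, or 20.1-fold, and leaving out WT replicate 2 gave 2.78, or 6.87-fold.

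Lcn2, the siderophore-binding lipocalin gene, had the widest gap between the groups. It read 11.73, 11.40, 10.41 and 10.45 in KO replicates 1 to 4, and 9.19, 7.50, 8.62 and 9.37 in WT replicates 1 to 4. The lowest KO array was 1.04 log2 units above the highest WT array, which here was replicate 4 and not replicate 1. The WT mean was 8.67 ± 0.84, and the KO mean, with an SD of 0.67, exceeded it by 2.33 log2 units, or 5.03-fold (SD, n = 4 each). Without WT replicate 1 it was 2.50.

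Saa1, the acute phase gene, read 6.50, 6.52, 4.99 and 4.92 in KO replicates 1 to 4, and 4.63, 2.85, 2.87 and 3.83 in WT replicates 1 to 4. As for Defb4, KO replicates 1 and 2 were nearly equal and high, and KO replicates 3 and 4 nearly equal and lower; the groups were apart by 0.29. The KO mean of 5.73 ± 0.90 exceeded the WT mean of 3.55 ± 0.86 (SD, n = 4 each) by 2.19 log2 units, or 4.55-fold, and by 2.55 without WT replicate 1. Its mean over the arrays lay at percentile 35.3 of all probe sets, and no detection call was used. The other members lay at percentiles 84.0 to 97.9. That percentile of Saa1 takes in the higher KO arrays. Its WT mean of 3.55 was a low level, against a median of 5.50 for the means of all probe sets, so its fold is taken from a low baseline.

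Chil1, the chitinase-like gene, had the smallest difference of the 5. It read 12.18, 11.91, 11.44 and 11.29 in KO replicates 1 to 4, and 10.84, 8.58, 9.51 and 10.46 in WT replicates 1 to 4. KO arrays were closer to one another than WT arrays, WT replicate 2 was the lowest, and the groups were apart by 0.45. The KO mean of 11.71 ± 0.41 exceeded the WT mean of 9.85 ± 1.01 (SD, n = 4 each) by 1.86 log2 units, or 3.63-fold, and by 2.19 without WT replicate 1.

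**Figure D1:**
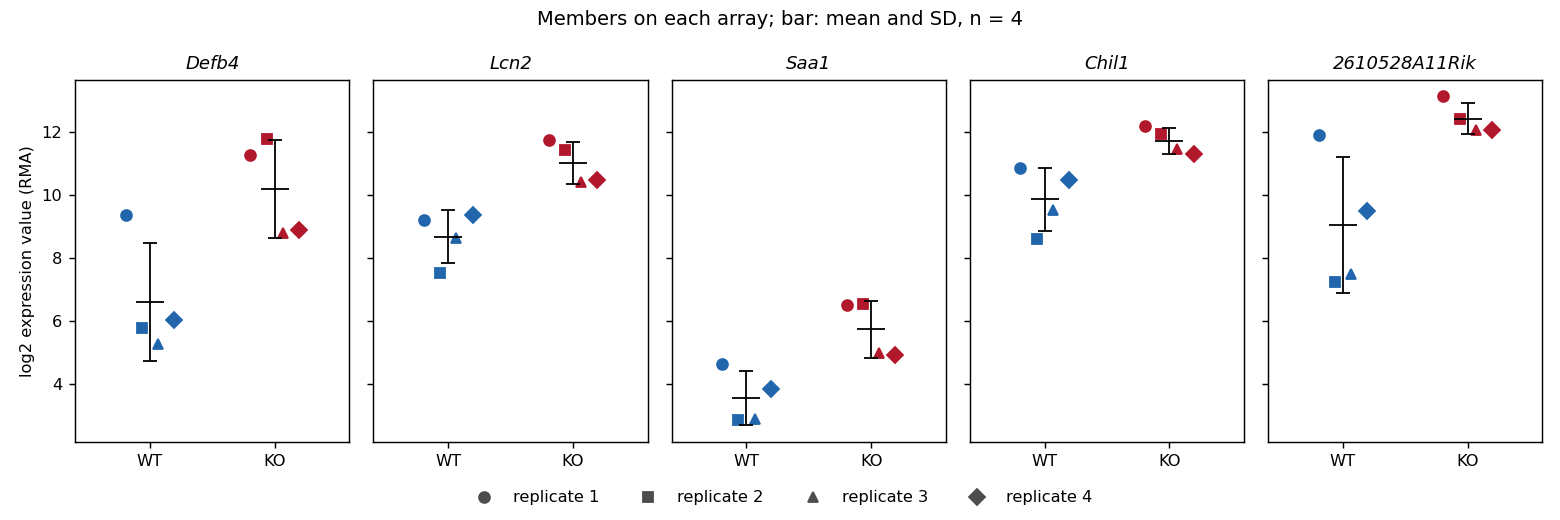
RMA log2 values of the 5 genes on each of the 8 arrays, with the mean and SD of each group (n = 4); the marker shape gives the replicate number. Groups are apart for Lcn2, Saa1, Chil1 and 2610528A11Rik, and WT replicate 1 lies above KO replicates 3 and 4 for Defb4.

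In all, every KO array was above every WT array for 4 of the 5 members, where 15.9% of all probe sets had this; the members were chosen on this contrast, so the count describes them and supports nothing. The authors' deposited table gives them adjusted p from 0.0125 for Lcn2 to 0.0437 for Defb4, just inside its limit of 0.05. With 1 array left out, limma's adjusted p passed that limit for 4 of the 5: for Defb4 without KO replicate 1 or 2 or WT replicate 2, 3 or 4 (up to 0.110), for Saa1 without KO replicate 1 or 2 or WT replicate 2 or 3 (up to 0.0685), for Chil1 without KO replicate 1 or 2 or WT replicate 3 (up to 0.0757), and for 2610528A11Rik without any array but WT replicate 1 (up to 0.0969). Lcn2 stayed within it, at 0.0398 or less. In bulk ear skin, more cells making a transcript and more transcript per cell cannot be told apart. With any 1 array left out the 5 differences themselves were between 1.44, for Chil1 without WT replicate 2, and 4.49. Rescaling by quantiles or medians left them between 1.74 and 3.47, but under each rescaling Defb4 or 2610528A11Rik lost its call.

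**Figure D2:**
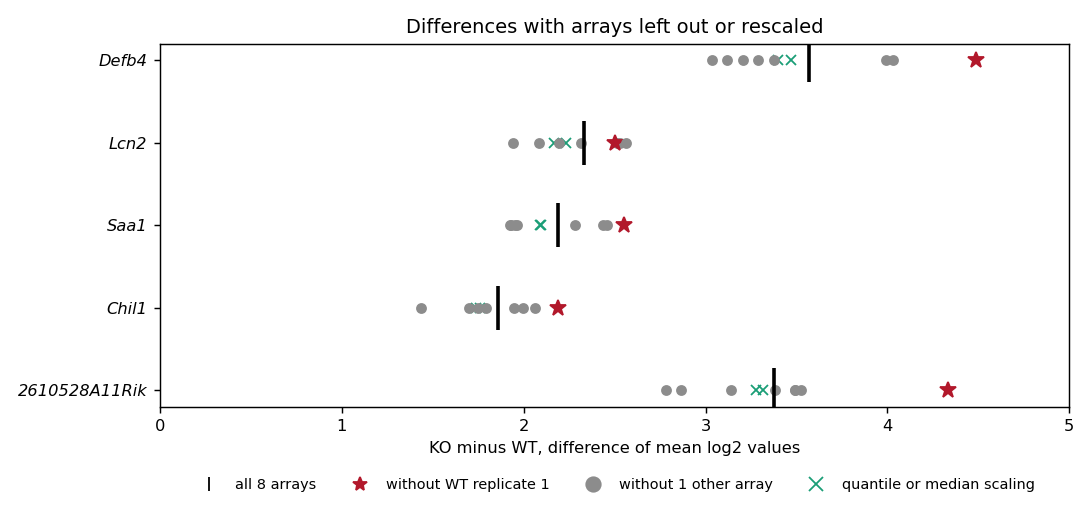
Difference of the mean log2 values, KO minus WT, for each gene with all 8 arrays (black bar), without WT replicate 1 (star), without 1 other array (grey) and after quantile normalization or median centring (crosses). The star is the highest value for Defb4 (4.49), 2610528A11Rik (4.33), Saa1 and Chil1, and lies at 2.50 for Lcn2, below that gene's highest of 2.56.

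The spread between mice of the same genotype also entered the choice of these genes, through the adjusted p of the table, so it is given as a description. The SD over the WT arrays, 0.84 to 2.16 log2 units, placed all 5 at percentiles 98.9 to 99.95 of the 33793 probe sets, whose median WT SD was 0.195. The SD over the KO arrays ran from 0.41 for Chil1 to 1.55 for Defb4, at percentiles 87.0 to 99.8, against a median of 0.199. 2610528A11Rik had a range of 4.66 log2 units among WT mice and 1.06 among KO mice, whereas Saa1 spread about as far in WT (1.78) as in KO (1.60).

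**Figure D3:**
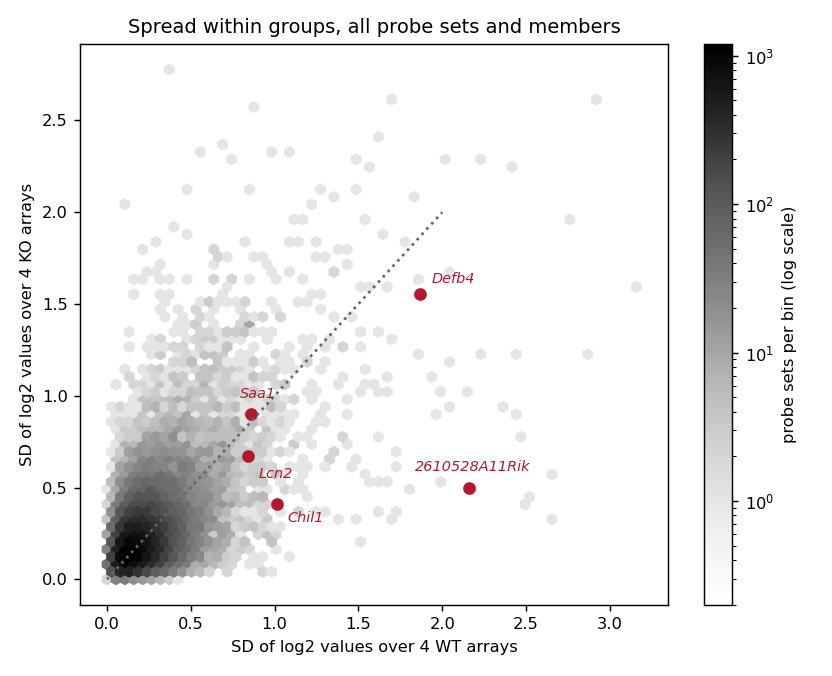
SD of the log2 values over the 4 WT arrays (x axis) and over the 4 KO arrays (y axis) for all 33793 probe sets (grey bins, log scale) and the 5 genes (red); the dotted line marks equal SD. Chil1 (1.01 in WT, 0.41 in KO) and 2610528A11Rik (2.16 and 0.50) lie far below the line, and Saa1 (0.86 and 0.90) lies on it.

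Mice that were high for one of the genes tended to be high for the others. Each array's deviation from the mean of its group was correlated between genes over the 8 arrays, which removes the group difference; the points share arrays and normalization, and these values are descriptions. Pearson r over the 10 pairs of members ran from 0.64 to 0.94, with a median of 0.82. The highest was that of Defb4 with Saa1 (r = 0.94, and 0.92 to 0.98 with any array left out), followed by Lcn2 with Chil1 (0.92, and 0.83 to 0.96). The lowest was that of Defb4 with Lcn2 (0.64, and 0.58 to 0.80). Defb4 with 2610528A11Rik (0.80) gave 0.44 once WT replicate 1 was left out, and 0.60 once KO replicate 2 was left out with it, the pair of arrays farthest from the median for Defb4.

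WT replicate 1 had the highest deviation of the WT arrays for 4 of the 5 members, and for Lcn2 WT replicate 4 had it, at 0.70. In WT replicate 1 the deviation was 2.87 for 2610528A11Rik, 2.76 for Defb4, 1.09 for Saa1, 0.99 for Chil1 and 0.52 for Lcn2. In WT replicate 2 all 5 were below their group mean, by 0.70 for Saa1 to 1.79 for 2610528A11Rik on the log2 scale. Among KO mice, replicates 3 and 4 were below the mean for every member and replicate 1 was above it. The deviations of Cdsn over all 8 arrays, WT arrays included, had r of -0.09 to 0.26 with the members. With 1 array left out this r ran from -0.47 to 0.47 for Defb4, -0.45 to 0.66 for Saa1 and -0.13 to 0.78 for Lcn2. KO replicate 1 had the highest Cdsn of the KO arrays, 10.31, and the highest Lcn2, Chil1 and 2610528A11Rik.

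**Figure D4:**
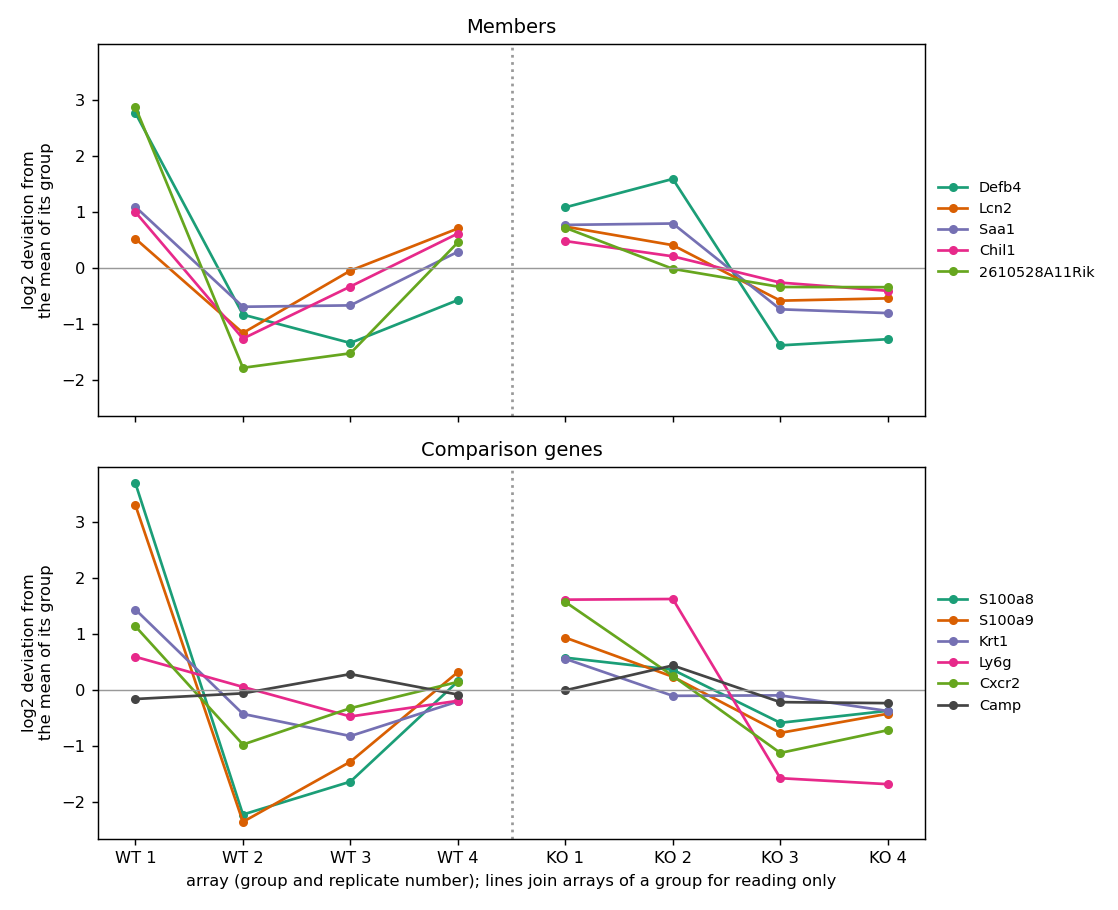
Deviation of each array from the mean of its own group, in log2 units, for the 5 members (top) and for 6 comparison genes (bottom); WT arrays are left of the dotted line and KO arrays right of it, and lines carry no order. WT replicate 1 is highest for 2610528A11Rik (2.87), S100a8 and S100a9, and KO replicates 1 and 2 stand apart from 3 and 4 for Defb4, Saa1 and Ly6g.

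Calprotectin, the S100a8 and S100a9 pair carried by neutrophils and stressed keratinocytes, ran closest to 2610528A11Rik, with r of 0.99 for each over the 8 arrays (0.96 to 0.99 for S100a8 and 0.94 to 0.99 for S100a9 with any array left out). Its r with the other members was 0.66 to 0.92. S100a8 read 11.57 in WT replicate 1 while its other WT values were 5.65 to 8.03, and 2610528A11Rik too was highest there among WT arrays. By limma S100a8 was called at adjusted p = 0.0429, a call lost with any of 7 arrays left out and after quantile normalization (0.0528).

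Ly6g, a surface marker of neutrophils, followed Defb4 and Saa1 more than 2610528A11Rik. It read 7.91, 7.93, 4.72 and 4.62 in KO replicates 1 to 4, and 4.12, 3.58, 3.05 and 3.33 in WT replicates 1 to 4, so KO replicates 1 and 2 were high as they were for Defb4 and Saa1, and WT replicate 1 stayed below every KO array. Its r was 0.82 with Saa1, 0.78 with Defb4, 0.61 with Lcn2, 0.44 with Chil1 and 0.35 with 2610528A11Rik; the differences between these values were not tested. The neutrophil chemokine receptor gene Cxcr2 had r of 0.74 to 0.90 with the 5, and Camp, the cathelicidin of neutrophil granules and keratinocytes, -0.28 to 0.29. By limma the call of Ly6g was lost with any of 6 arrays left out and after quantile normalization (adjusted p = 0.0611). That of Cxcr2 was lost with any of 4. Of 17 neutrophil markers 5 were in the table, all higher in KO, where 7.63% of all probe sets were higher at its criteria. The lists were chosen with earlier results of these data known, so this count describes the markers and supports nothing. The mean log2 value of these 5 was 7.78 to 9.57 in KO and 4.44 to 7.27 in WT, highest of the WT arrays in replicate 1. That array's mean leaned on S100a8 (11.57) and S100a9 (9.00), which stressed keratinocytes also carry. There Cxcr2 read 8.47 and Ly6g 4.12, each the highest of its WT values, and Camp read 3.18, its lowest WT value. The other markers, the granule protease genes Mpo, Elane, Ctsg and Prtn3 among them, were not in the table. Camp aside, the markers in the table had r of 0.35 to 0.99 with the members. The part of these markers in the members' differences was not tested.

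Markers of other cell types were in the table in small numbers, where 10.1% of all probe sets were. It held none of 12 macrophage and none of 7 adipocyte markers. Of 10 cartilage markers Prg4, the joint lubricant proteoglycan, was in it, at 10.77 to 11.52 in KO and 8.69, 8.69, 9.87 and 10.56 in WT replicates 1 to 4, with r of -0.16 to 0.57 with the members. Of 10 keratinocyte markers Krt1, the suprabasal keratin, and Ivl, the cornified envelope protein involucrin, were in it, with r of 0.51 to 0.93 and 0.68 to 0.88. Of 7 sebocyte markers it held Fabp5 alone, with r of 0.24 to 0.80, a fatty acid binding protein gene that the table describes as epidermal. The part of these cells was not tested. The array median over all probe sets correlated with each member at 0.50 to 0.61. The first component of all probe sets' deviations, 47.1% of their variance, correlated at 0.89 with Defb4, 0.85 with Saa1 and 0.53 to 0.58 with the others.

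Among 2594 other named genes, the 3 whose deviations ran closest to each member were as follows. For Defb4 they were the kallikrein protease gene Klk11 (r = 0.99), the actin regulator gene Enah (0.99) and the late cornified envelope gene Lce3f (0.99). Lce3f read 9.46, 10.10, 7.13 and 6.79 in KO replicates 1 to 4 and 7.52, 4.03, 2.94 and 3.70 in WT replicates 1 to 4, with WT replicate 1 above KO replicates 3 and 4, as for Defb4. For Lcn2 they were the transcription factor gene Cebpb (0.98), Tnfaip3 (0.98), which encodes the NF-kB inhibitor A20, and the predicted gene Gm12065 (0.98). For Saa1 they were the ribosome assembly gene Bysl (0.99), the small proline-rich gene Sprr2i (0.98) and the chromatin protein gene Hmga2 (0.97). For Chil1 they were Myo16 (0.99), an unconventional myosin, and the transporter genes Slc25a48 (0.97) and Slc5a10 (0.97). For 2610528A11Rik they were S100a8, S100a9 and the predicted gene Gm25226 (0.97), the last of which was lower in KO (log2 difference -0.76). With any array left out the lowest of these r values was 0.88, for Gm25226 without WT replicate 1. Each was picked as the highest of 2594 over 8 arrays.

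The wider antimicrobial list held 26 genes, 3 of them members, and 4 of the other 23 were called higher by limma, namely S100a9, S100a8, Pglyrp3 and Camp, where 7.63% of all probe sets were higher at the table's criteria; 0 were lower. The other 19 were not in the table, so they missed its criteria or had no probe set. This list was chosen with earlier results of these data known, so its count describes it and supports nothing. The median log2 difference of the 7 in the table was 3.38, against 0.094 over all probe sets, and names exist only for changed genes, so this median describes them alone. Pglyrp3, a peptidoglycan-binding protein of stratified epithelia, read 9.53, 9.84, 9.02 and 8.53 in KO replicates 1 to 4 and 8.69, 7.06, 7.08 and 7.37 in WT replicates 1 to 4. It rose by 1.68 (SE 0.40, limma adjusted p = 0.0268), its groups overlapped through WT replicate 1, and it ran with Defb4 at r = 0.96. Camp rose by 0.85 (SE 0.17, adjusted p = 0.0155 by limma), from a low level of 3.18 to 3.63 in WT. The call of Pglyrp3 was lost without KO replicate 1 or 2 or WT replicate 2, 3 or 4, and those of S100a9 and Camp held with any array left out.

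Of 42 beta-defensin genes of RefSeq, 6 were in the table, which held 10.1% of all probe sets, a share near that of the family. The 5 other than Defb4 were a different kind of reading: Defb18, Defb22, Defb42 and Defb45 were higher by 0.55 to 0.69 log2 units and Defb50 lower by a log2 difference of -0.56, and all had means at percentiles 11.9 to 21.7 of all probe sets. The call of Defb22 was lost with any of 7 arrays left out and after quantile normalization (0.0773), that of Defb45 with any of 5 and after it (0.0567), and that of Defb50 without KO replicate 2. Defb18 read 3.33 to 3.68 in KO and 2.64 to 2.97 in WT, lowest in WT replicate 1, where Defb4 was the highest of its group. Of 11 lipocalin genes, Lcn9 was in the table beside Lcn2. Lcn9 read 5.27, 5.15, 5.09 and 5.15 in KO replicates 1 to 4 and 4.03, 4.19, 4.13 and 4.09 in WT replicates 1 to 4, with little spread in either group, and rose by 1.06 (SE 0.09, limma adjusted p = 0.000943). Of 4 serum amyloid A and 7 chitinase and chitinase-like genes, Saa1 and Chil1 alone were in the table. RefSeq gives Saa2 as a synonym of Saa1, and the authors' deposited table puts the probe sets of all 5 members in cross-hybridisation class 1, not in class 3, which marks probe sets that also match other transcripts.

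Of 29 acute phase genes, 2 of them members, 4 of the other 27 were in the table as higher and 0 as lower. Of all probe sets 7.63% were higher at its criteria. The remaining 23 were not in the table, so they missed its criteria or had no probe set. This list too was chosen with earlier results of these data known, so its count supports nothing. Fgg, the fibrinogen gamma chain, read 5.90, 5.43, 4.40 and 4.22 in KO replicates 1 to 4 and 2.52, 2.71, 2.87 and 2.47 in WT replicates 1 to 4. The KO arrays split as for Saa1, while WT replicate 1 was among the lower WT arrays. The WT arrays spanned 0.40 log2 units at a low level, so their order says little. Fgg rose by 2.35 (SE 0.34, limma adjusted p = 0.00532) from that low level, and its mean over the arrays lay at percentile 22.1 of all probe sets. The serpin gene Serpina3m rose by 1.93 (adjusted p = 0.0394), the copper-carrying ferroxidase gene Cp by 1.10 (0.00817) and the hyaluronan-binding inhibitor chain gene Itih3 by 0.98 (0.0211), all by limma. Serpina3m ran closest to Lcn2 (r = 0.89) and, like it, had its highest WT value in replicate 4, at 6.97. Its call was lost without KO replicate 1, 2 or 3 or WT replicate 1, 2 or 3, after quantile normalization (0.0531), after median centring (0.0525) and with the replicate block (0.0666). The call of Itih3 was lost without KO replicate 1 or 2 or WT replicate 2. The median log2 difference of the 6 in the table, members included, was 2.06.

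Of 14 genes for receptors and binding partners of the member proteins, 2 were in the table, which held 10.1% of all probe sets, a share near that of the list. Cd44, the hyaluronan receptor, read 11.54, 11.63, 10.82 and 11.07 in KO replicates 1 to 4 and 10.99, 10.04, 9.19 and 9.79 in WT replicates 1 to 4, with WT replicate 1 above KO replicate 3. It rose by 1.26 (SE 0.35, limma adjusted p = 0.0438), a call lost with any of 7 arrays left out and after quantile normalization (0.0697). Tlr4, the endotoxin receptor, rose by 0.63 (SE 0.13, limma adjusted p = 0.0179), and WT replicate 1 was its lowest array at 6.93; the call was lost without KO replicate 2 or WT replicate 2. Gpr15 and Ccr6, receptors for the products of 2610528A11Rik and Defb4, were not in the table.

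Of 28 genes for cytokines that induce such proteins and for their signalling, 9 were in the table, all higher in KO. Of all probe sets 7.63% were higher at its criteria. The other 19, Il17a and Il22 among them, were not in the table, so they missed its criteria or had no probe set. The median log2 difference of the 9 was 1.17, which describes changed genes alone. This list too was chosen with earlier results of these data known, so its count supports nothing. Il1f6, which encodes IL-36 alpha, read 10.34, 10.21, 9.42 and 8.61 in KO replicates 1 to 4 and 8.67, 6.72, 6.10 and 6.52 in WT replicates 1 to 4. It rose by 2.65 (SE 0.57, limma adjusted p = 0.0193), its groups met through WT replicate 1, and it ran with Defb4 at r = 0.95. Il24 (2.62) and Il1a (1.92) also had WT replicate 1 inside the KO range, with r of 0.67 to 0.92 and 0.69 to 0.90 with the members. Il17f, a type 17 cytokine that acts on keratinocytes, was different: it read 6.15, 5.39, 6.28 and 5.94 in KO replicates 1 to 4 and 4.84, 4.65, 4.82 and 4.79 in WT replicates 1 to 4. Its WT arrays were nearly equal and KO replicate 2, high for Defb4 and Saa1, was its lowest KO array. It rose by 1.17 (SE 0.18, limma adjusted p = 0.00634), with r of -0.31 to 0.14 with the members, and kept its call with any array left out. The calls of Il1f6 and Il1a were lost without KO replicate 2 or WT replicate 2, 3 or 4, and that of Il24 without these or KO replicate 1 or 4.

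The signalling genes of that list were nearer to Lcn2 and Chil1 than to Defb4. Nfkbiz, an atypical IkB protein that IL-17 signalling uses to switch on antimicrobial genes, rose by 1.46 (SE 0.23, limma adjusted p = 0.00679), with r of 0.92 with Lcn2, 0.86 with Chil1 and 0.45 with Defb4. Cebpb, which encodes the factor C/EBP beta, rose by 0.71 (adjusted p = 0.0429 by limma), with r of 0.98 with Lcn2, 0.91 with Chil1 and 0.64 with Defb4. Cebpb lost its call with any of 7 arrays left out and after quantile normalization (0.105). Stat3 rose by 0.57, the RNase gene Zc3h12a by 0.94 and the IL-17 receptor gene Il17ra by 0.65, with limma adjusted p of 0.0126 to 0.0373. Their r with Lcn2 was 0.81, 0.68 and 0.87, and with Defb4 0.37, 0.21 and 0.42. After quantile normalization Stat3 (0.0555) and Il17ra (0.0893) were not called, and Il17ra was also lost with any of 7 arrays left out. The differences between these r values were not tested.

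**Figure D5:**
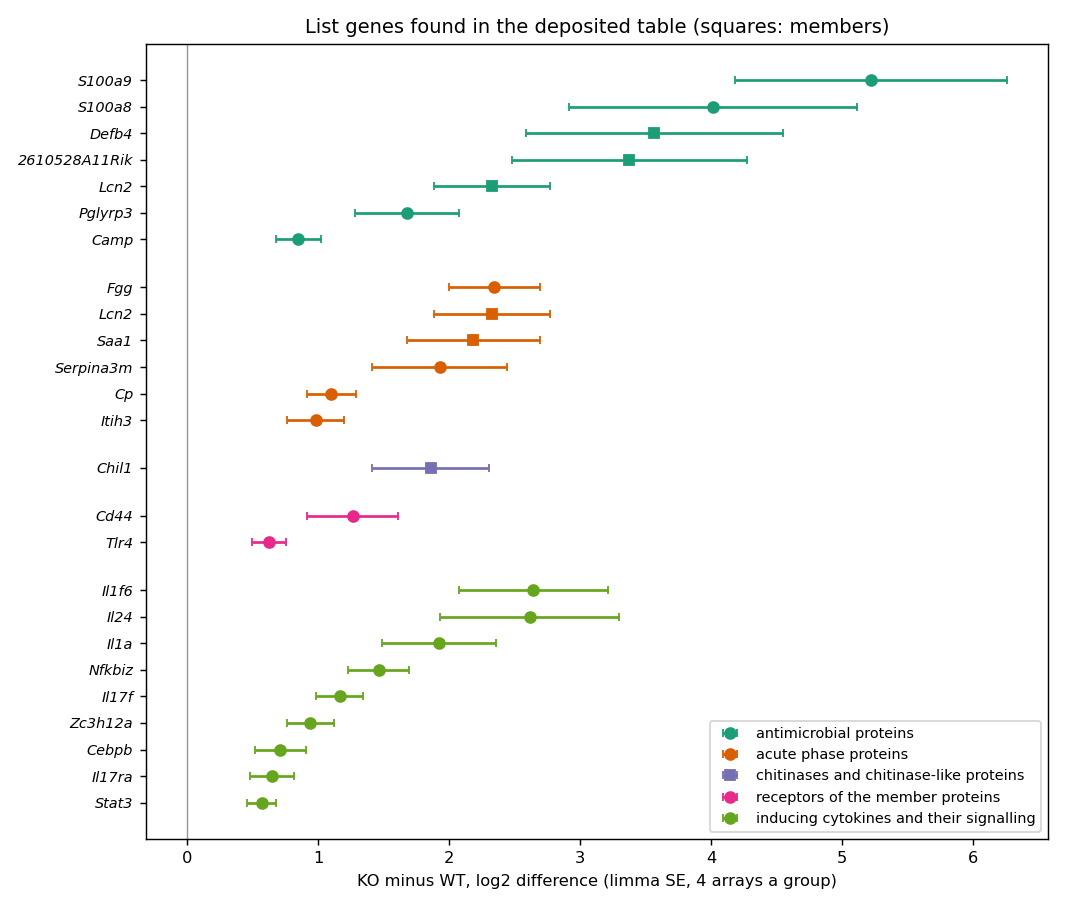
Log2 difference, KO minus WT, with its limma standard error, for the genes of 5 lists that are in the authors' deposited table; squares are members, circles other genes, and colours give the list. All lie above 0, from 0.57 for Stat3 to 5.22 for S100a9; genes that did not change cannot appear, since names exist only for changed probe sets.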

How the data were processed

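RNA of ear skin from 4 KO and 4 WT mice was hybridised to Affymetrix Gene Mouse 2.0 ST arrays, per the file headers. The authors deposited log2 values for 33793 probe sets, from RMA according to the submitters' processing notes (per the labels); its version and options are not given in the sources used here. They also deposited group means, a linear fold ratio, its log2 and raw and adjusted p-values for 3411 probe sets, with gene symbols; all other probe sets stay unnamed here. The limma fit met the table's criteria at the same 3411 probe sets.

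Values were used as deposited. Limma 3.58.1 in R 4.3.3 was fitted to all probe sets (KO minus WT, no block, two-sided, Benjamini-Hochberg adjustment); it was tested on simulated data. The members and lists were chosen with earlier results of these data known. Members were chosen on this contrast, so their adjusted p, with all arrays or with 1 left out, describes how near the limit they lie and supports nothing. The highest-mean probe set stood for a gene. Named genes are the members, Cdsn, 3 genes of nearest deviations per member (class 3 left out), up to 4 genes of each list and 4 comparison genes; further list and family genes were named after their values were seen. p-values measure the spread between mice of 1 experiment. Alternatives were quantile normalization, median centring, a filter on dim probe sets, an intensity trend, a replicate block and leaving out each array. Same-numbered KO and WT arrays were checked for pairing. Python 3.11.15, numpy 2.4.6, pandas 2.3.3, scipy 1.17.1 and matplotlib 3.10.9 were used. No column lacked a sample.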

Additional observations from a re-analysis of the deposited data

Results flagged for a closer look

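Of 98 groups of 4 arrays examined (49 genes, KO and WT apart), 2 had an array far from the other 3 by Dixon's criterion, where chance gives about 1 in 20. Stat3 read 10.64 in WT replicate 2 against 10.95 to 10.99 in the other WT arrays. The low-level defensin gene Defb22 read 4.15 in KO replicate 4 against 3.90 to 3.92 in the other KO arrays. No array of a member met the criterion, WT replicate 1 included.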

How the results depend on the processing

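The differences of the 5 members and of Cdsn kept their direction under each alternative run, and each member moved by less than 1 SD within groups, pooled over KO and WT. With 1 array left out they were 3.04 to 4.49 for Defb4, 1.94 to 2.56 for Lcn2, 1.92 to 2.55 for Saa1, 1.44 to 2.19 for Chil1, 2.78 to 4.33 for 2610528A11Rik and -2.60 to -2.13 for Cdsn. The median r of deviations over the 10 member pairs, 0.82, was 0.80 to 0.88 with 1 array left out. Probe sets called, 4428 in all, were 2161 to 3504 with 1 array left out and 718 without dim probe sets; after quantile normalization 1689 were higher and 1751 lower, and after median centring 1819 and 1598. Called genes fell from 7 to between 3 and 7 with 1 array left out for the antimicrobial list, from 6 to between 3 and 6 for acute phase, from 1 to between 0 and 1 for chitinases, from 2 to between 0 and 2 for receptors, and from 9 to between 4 and 8 for inducers. Without dim probe sets these counts were 2, 2, 0, 1 and 4. Some list genes, Saa1 among them, were left out of that fit. S100a8 (0.0767), Pglyrp3 (0.0551), Serpina3m (0.0725), Cd44 (0.0764), Il24 (0.0698), Il1a (0.0524), Cebpb (0.0725) and Il17ra (0.0628) stayed in it with a higher adjusted p. So did the members Defb4, Chil1 and 2610528A11Rik, which also lost their calls there, while Lcn2 kept its call. In the same order the counts were 5, 5, 1, 1 and 6 after quantile normalization and 5, 5, 1, 1 and 7 after median centring. Under each rescaling, Defb4 or 2610528A11Rik was among the antimicrobial genes that lost the call. The cause of these losses was not tested. Of 500 repeats over the other named genes, 167 lost the call and 0 changed direction.

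Same-numbered KO and WT arrays had correlations of deviations of -0.06 to 0.55, and 3 of 4 KO arrays correlated best with their own number. The labels do not say whether same-numbered mice share a litter or batch. Whether they are pairs therefore cannot be told, and the main fit used no block. With the replicate block 5150 probe sets were called, against 4428 without it. Averaging a gene's probe sets was not run, since each member has 1 in the table. With 4 arrays a group, small differences are not detectable.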
